A study of Homo sapiens with 6 samples.

Results

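Antiviral effectors are the proteins that a cell makes in answer to interferon and that act on a virus or its RNA. The list followed here held 57 genes under this heading, with chemokines, sensors and regulators of the response among them. They were chosen by symbol and grouped into 11 families by what their products do. All 57 were found, each with 1 gene identifier, among the 64253 genes of the count tables. The RNA came from PC-3, a human cell line grown from a bone metastasis of a prostate cancer. The shCdGAP group (3 libraries) carried a stably expressed short hairpin RNA (shRNA) against CdGAP, the GTPase-activating protein encoded by ARHGAP31, and the shCon group (3 libraries) carried a control shRNA. The study brought the shRNA into PC-3 cells by infection with lentiviruses, and gives 1 hairpin sequence against CdGAP for these cells. Beyond these vectors, no virus or interferon was named as a treatment of either group. The question asked here was thus how this gene program stood in the depleted cells under ordinary culture. According to the study's methods, the depleted cells were brought up as single-cell clones after puromycin selection, which is not stated for the control cells, so depletion and the choice of a clone cannot be told apart. The 3 samples of a group are called independent in the methods, but whether they came from separate clones or from cultures of 1 line is not stated, so p-values measure the spread between these samples, which may be technical.

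Interferons are secreted proteins that bind receptors on the same or neighbouring cells. Type I and type III interferons act through the kinases JAK1 and TYK2 on transcription factors, among them STAT2, which joins IRF9 in a complex that binds the interferon-stimulated response element (ISRE) in the promoters of its target genes. Type II interferon acts through JAK1 and JAK2 and leads to binding at gamma-activated sites (GAS). Many of the targets are kept at a low level in resting cells, and some are switched on by other routes, among them RNA or DNA sensed inside the cell.

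The sequences of the response element show what the listed genes share and were taken from the RefSeq promoter windows of GRCh38.p14, which run from 250 bases before to 50 bases after each start site. Of the 57 genes, 46 had a window, and 11 did not (OAS2, OASL, IFIT2, IFITM2, MX2, GBP2, USP18, DHX58, TRIM22, CCL5 and APOL1). The letters GAAANNGAAA, the core of an ISRE, were searched on both strands, and matches could overlap one another. They were found in 33 of the 46 genes (71.7%), against 4.38% of the 27305 genes with a window. The letters TTCNNNGAA, the core of a GAS, read the same on both strands and were found in 13 of the 46 genes (28.3%), against 9.38% of all genes with a window. Stretches around a match are printed 5′ to 3′ on the strand of the gene, with the match in capitals; a match on the opposite strand reads as TTTC, 2 bases, TTTC. The first set belongs to genes that rose in the shCdGAP cells.
IFI27 (chr14:94110626-94110665, plus strand): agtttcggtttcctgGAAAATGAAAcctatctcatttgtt
IFI6 (chr1:27672283-27672322, minus strand): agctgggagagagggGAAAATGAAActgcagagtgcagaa
BST2 (chr19:17405736-17405775, minus strand): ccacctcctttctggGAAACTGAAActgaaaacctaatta
RSAD2 (chr2:6877617-6877656, plus strand): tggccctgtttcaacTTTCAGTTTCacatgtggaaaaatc
ISG15 (chr1:1013375-1013414, plus strand): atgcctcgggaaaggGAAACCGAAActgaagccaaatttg
The second set belongs to listed genes that did not rise, and is shown because it holds the same letters.
IFIT5 (chr10:89414508-89414547, plus strand): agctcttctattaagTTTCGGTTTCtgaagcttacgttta
CXCL10 (chr4:76023694-76023733, minus strand): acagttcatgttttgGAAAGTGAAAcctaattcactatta
PLSCR1 (chr3:146544662-146544701, minus strand): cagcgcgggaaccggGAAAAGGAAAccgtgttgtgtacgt
TRIM14 (chr9:98119224-98119263, minus strand): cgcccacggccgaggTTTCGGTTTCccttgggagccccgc
The letters occurred both in genes that rose and in genes that did not. They were present in 12 of 18 windows (66.7%) of genes that rose with a log2 fold change above 1. The counts were 14 of 15 windows (93.3%) of genes that rose by less, and 7 of 13 (53.8%) of tested genes that did not rise. The difference between these shares was not tested. Genes of the first class without a match in the window included IFI16, IFI35, XAF1, CMPK2, SAMD9L and HERC6. A match is a run of letters and was not tested as a binding site.

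The libraries held between 33182796 and 43154039 counted reads, and 3 reads, the floor used for a gene, corresponded to 0.0689 to 0.0908 CPM, the unit that scales the reads of a gene to a common library total after TMM adjustment. ARHGAP31, the target of the shRNA, was lower in every shCdGAP library (log2 fold change -1.14, adjusted p = 8.75e-08). Its mean was 26.8 CPM in shCdGAP and 59.2 CPM in shCon, so a part of the transcript remained (ratio 0.453). The study reported a larger reduction of CdGAP mRNA, measured by qPCR. The epithelial keratins KRT8 and KRT18 held at least 6088 reads in every library and did not pass the test, while KRT19 (log2 fold change 1.04) and VIM (0.87) were higher in shCdGAP. KLK3, which encodes prostate-specific antigen and which PC-3 is known not to make, had no read. Of the leukocyte markers, CD3E and MS4A1 were at 0, PTPRC had at most 1 read and ITGAM at most 4, CD14 had 4 to 11 reads, and LYZ had 1 to 27 reads and was lower in shCdGAP. The endothelial gene CDH5 had at most 10 reads, PECAM1 had 93 to 261 reads, and the erythroid genes HBB and HBA1 were at 0. One library stood apart. The chi-square statistic per gene between shCdGAP replicate 2 and its fellow replicates was 27.2 and 33.3, and between the other pairs of a group it was 2.59 to 6.94. Where leaving it out changed the call of a listed gene, both log2 fold changes are given.

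Of the 57 genes, 55 had enough reads for the test. The edgeR quasi-likelihood test was fitted to all 16439 genes that passed the filter on low counts, with Benjamini-Hochberg adjustment over all of them, and a gene was called at an adjusted p under 0.01. In the shCdGAP cells 41 of the 55 genes rose (74.5%), where 24.1% of all tested genes rose. Only TRIM14 fell, where 22% of all tested genes fell, and 13 genes did not pass. With a log2 fold change above 1 as a further limit, 24 of the 55 genes rose (43.6%) against 8.56% of all tested genes, and 0 fell below -1 against 4.19%. The median log2 fold change was 0.91 over the 55 genes and 0.01 over all tested genes. Every shCdGAP library lay above every shCon library for 44 genes (80.0%) against 34.4% of all tested genes, and below for 2 genes against 32.7%. The list was drawn up with results of these data known, so these counts describe the list. In RNA of whole cultures, more cells with a transcript and more RNA per cell cannot be told apart.

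**Figure D1:**
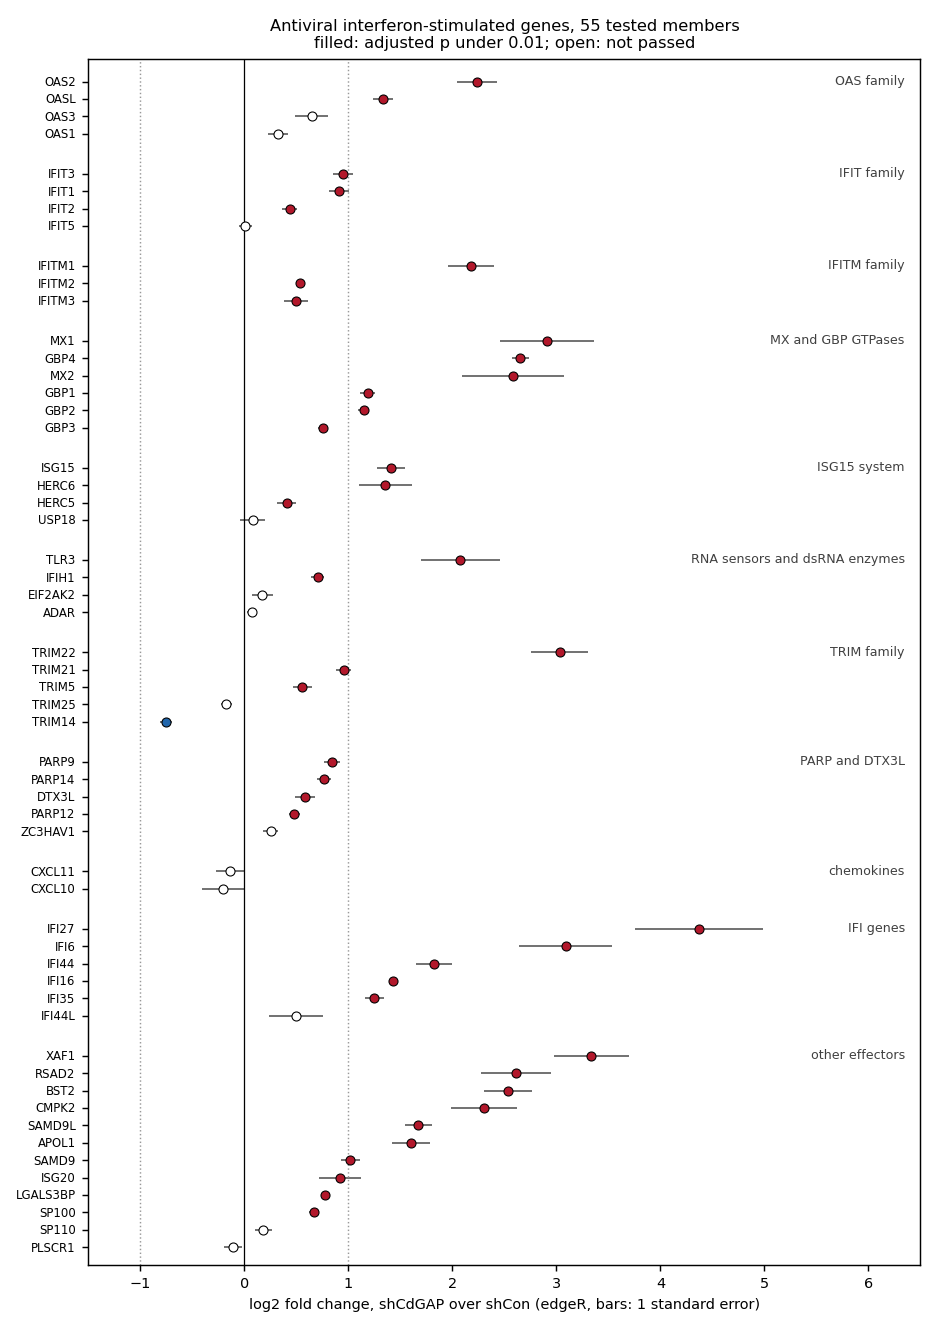
Log2 fold change of shCdGAP over shCon (horizontal axis) for the 55 tested genes, ordered by family, with bars of 1 standard error from the edgeR fit. Red points rose and the blue point, TRIM14, fell at an adjusted p under 0.01, open points did not pass, and the dotted lines mark a log2 fold change of 1 and -1. Most points lie right of 0, and 24 of the red points lie beyond the dotted line at 1.

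4 genes passed the filter on low counts with fewer than 10 reads in at least 1 shCon library, namely MX2, TLR3, RSAD2 and XAF1. They passed through the group in which they were high, and with 10 reads required in every library 38 of 51 genes rose, against 24.37% of all genes tested in that way. 2 genes had too few reads for any test. DHX58, which encodes the RNA sensor LGP2, had 1 read in all, in shCdGAP replicate 3. CCL5, a chemokine that draws T cells, had 1 read in each of 2 shCdGAP libraries and none in the others. At this depth no difference was detectable for either gene.

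Of the 6 IFI genes, named only for their induction by interferon, 5 rose, each by a log2 fold change above 1 (median over the 6 genes, 1.62). Of all tested genes 24.1% rose, and 8.56% by as much. IFI27, which encodes a small membrane protein of mitochondria and the nuclear envelope, had 26.5, 9.34 and 29.7 CPM in shCdGAP replicates 1 to 3 and 0.882, 0.853 and 1.48 CPM in the shCon libraries. The lowest shCdGAP library was still several times above the highest shCon library. The log2 fold change was 4.37 ± 0.62 (SE, n = 3 per group, adjusted p = 0.00219), the largest of the list. IFI6, whose product counters virus-induced cell death and remodelling of the endoplasmic reticulum, had 92.9, 38.0 and 100.1 CPM in shCdGAP and 8.51, 9.22 and 9.38 CPM in shCon (log2 fold change 3.09 ± 0.45, adjusted p = 0.00278). Its 139 tested neighbours within 5 Mb had a median log2 fold change of 0.18, and 98 of them lay above 0. IFI27 and IFI6 both showed a wide spread within shCdGAP, with replicate 2 lowest. Both missed the threshold without shCon replicate 1, with adjusted p = 0.0116 for IFI27 and 0.0113 for IFI6. IFI16, a sensor of DNA in the nucleus, was the most abundant of the family in CPM, at 201, 209 and 206 CPM in shCdGAP and 76.8, 74.8 and 77.7 CPM in shCon. Its replicates lay close together, and its log2 fold change of 1.43 ± 0.04 had the smallest adjusted p of the list (1.67e-08). IFI44 (1.82) and IFI35 (1.25) rose as well. IFI44L, a paralog and neighbour of IFI44, had a log2 fold change of 0.50 ± 0.26 (adjusted p = 0.147). Its shCdGAP replicate 2, at 13.0 CPM, lay under all 3 shCon libraries, and without that library the log2 fold change was 0.75 (adjusted p = 2.86e-14).

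All 6 dynamin-like GTPases rose, 5 of them by a log2 fold change above 1 (median 1.88), against 24.1% and 8.56% of all tested genes. MX1, which encodes MxA, a GTPase that traps viral nucleocapsids, had 25.9, 9.64 and 25.98 CPM in shCdGAP and 2.72, 2.80 and 2.63 CPM in shCon. The groups did not overlap, and the log2 fold change was 2.91 ± 0.45 (adjusted p = 0.00247). MX1 missed the threshold when any shCon library was left out, with adjusted p between 0.0108 and 0.0137. MX2, best known for acting on HIV-1, had 48, 21 and 41 reads in shCdGAP and 3, 8 and 7 reads in shCon (log2 fold change 2.58). Guanylate-binding proteins coat intracellular pathogens and the vacuoles around them, and are best known as targets of interferon gamma. GBP4 had 19.2, 19.0 and 19.9 CPM in shCdGAP and 3.36, 2.80 and 3.06 CPM in shCon (log2 fold change 2.65 ± 0.08, adjusted p = 4.73e-08). GBP2 had 82.2, 93.0 and 84.7 CPM in shCdGAP and 39.4, 38.2 and 39.6 CPM in shCon (log2 fold change 1.15 ± 0.05, adjusted p = 3.1e-07). Unlike MX1, GBP4 and GBP2 varied little among the 3 shCdGAP libraries. GBP1 (1.18) and GBP3 (0.76) rose too. The GBP genes are close paralogs that lie side by side on chromosome 1, and 9.89% of the exon bases of GBP2 are shared with GBP7 on the same strand, so reads that fit more than 1 of them were left out of the counts.

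The OAS enzymes make 2′-5′-linked oligoadenylates on binding double-stranded RNA, which lead to the breakdown of RNA in the cell. Of the 4 genes, OAS2 and OASL rose (50%, against 24.1% of all tested genes), and OAS1 and OAS3 did not pass (median 0.99). With 4 genes, this count does not set the family apart. Every shCdGAP library lay above every shCon library for each of the 4, as it did for 34.4% of all tested genes. OAS2 had 42.9, 26.9 and 41.1 CPM in shCdGAP and 8.22, 7.27 and 7.99 CPM in shCon (log2 fold change 2.24 ± 0.19, adjusted p = 5.57e-05). OASL, which lacks the synthase activity and acts with the sensor RIG-I, had 16.3, 13.4 and 16.4 CPM in shCdGAP and 6.05, 5.92 and 6.33 CPM in shCon (log2 fold change 1.33 ± 0.10). OAS3, the longest enzyme of the family, had 157, 102 and 147 CPM in shCdGAP and 89.9, 84.9 and 84.7 CPM in shCon. Its log2 fold change was 0.65 ± 0.16 (adjusted p = 0.0131), and OAS1 had 0.32 ± 0.10 (adjusted p = 0.0187). Without shCdGAP replicate 2 both passed, at log2 fold changes of 0.81 and 0.42, and both also passed with DESeq2. OAS1, OAS2 and OAS3 lie in 1 cluster on chromosome 12. The other 75 tested genes within 5 Mb of each had a median log2 fold change of 0.26, and 63 of them lay above 0. The part of the regions around these genes, ISG15 and IFI6 in their values was not tested.

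IFIT proteins bind viral RNA that lacks the host's cap marks. Of the 4 genes, which lie together on chromosome 10, 3 rose (75%, against 24.1% of all tested genes). None rose by a log2 fold change above 1 (median 0.67), where 8.56% of all tested genes did. IFIT3 had 21.4, 16.8 and 19.96 CPM in shCdGAP and 9.49, 10.6 and 10.1 CPM in shCon (log2 fold change 0.95 ± 0.10, adjusted p = 4.01e-05). IFIT1 had 22.9, 22.02 and 19.2 CPM in shCdGAP and 12.4, 9.999 and 11.9 CPM in shCon (log2 fold change 0.91 ± 0.10), and IFIT2 rose by less (0.44). In these 3 genes every shCdGAP library lay above every shCon library, as in 34.4% of all tested genes. IFIT5, the most abundant of the family in shCon by CPM, had 31.5, 27.97 and 30.2 CPM in shCdGAP and 30.2, 28.1 and 30.8 CPM in shCon. Its groups overlapped, and its log2 fold change was 0.01 ± 0.06 (adjusted p = 0.893).

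IFITM proteins sit in membranes and hinder the fusion of enveloped viruses. All 3 rose. IFITM1, found mainly at the cell surface, had 18.3, 11.3 and 20.4 CPM in shCdGAP and 3.65, 3.79 and 3.54 CPM in shCon (log2 fold change 2.18 ± 0.22, adjusted p = 0.000101). IFITM2 had 99.2, 93.1 and 98.5 CPM in shCdGAP and 66.6, 66.5 and 67.1 CPM in shCon (log2 fold change 0.54 ± 0.04, adjusted p = 4.77e-06). IFITM3, found in endosomes, had 139.9, 101 and 136 CPM in shCdGAP and 89.0, 88.8 and 88.6 CPM in shCon (log2 fold change 0.50 ± 0.12, adjusted p = 0.00827). IFITM1 thus differed most, from the lowest level of the 3. IFITM3 missed the threshold when any library other than shCdGAP replicate 2 was left out, with adjusted p between 0.0185 and 0.0293. In the annotation 32.5% of the exon bases of IFITM1 and 22.7% of those of IFITM2 are shared between these genes, and the 3 coding sequences are much alike, so their levels are uncertain.

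ISG15 is a ubiquitin-like protein that is joined to other proteins, HERC5 is the main ligase for it in human cells, and USP18 removes it and also shuts down the type I interferon receptor. ISG15 had 109.6, 79.3 and 116 CPM in shCdGAP and 38.9, 38.2 and 37.5 CPM in shCon (log2 fold change 1.41 ± 0.14, adjusted p = 0.000142). The other 85 tested genes within 5 Mb of it had a median log2 fold change of 0.26, and 71 of them lay above 0. HERC6, a relative of HERC5, had 22.03, 12.6 and 25.4 CPM in shCdGAP and 8.01, 7.75 and 7.60 CPM in shCon (log2 fold change 1.36 ± 0.26, adjusted p = 0.0038). HERC5 rose by less (0.41, adjusted p = 0.00392). The modifier and both HERC genes were thus higher, whereas USP18 was at 5.54 ± 0.76 CPM (SD, n = 3) in shCdGAP and 5.23 ± 0.19 CPM in shCon, with overlapping groups (log2 fold change 0.08, adjusted p = 0.588). HERC6 missed the threshold when any shCon library was left out (adjusted p between 0.0149 and 0.0156). HERC5 missed it when any library but shCdGAP replicate 2 was left out (0.0128 to 0.0260).

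Among the RNA sensors and enzymes of double-stranded RNA, 2 of the 4 tested genes rose (50%), against 24.1% of all tested genes. With 4 genes, this count does not set the family apart. TLR3, the endosomal receptor for double-stranded RNA, had 0.937, 1.03 and 0.611 CPM in shCdGAP and 0.334, 0.118 and 0.151 CPM in shCon, from 5 to 45 reads per library (log2 fold change 2.07 ± 0.38, adjusted p = 0.00139). IFIH1, which encodes the cytoplasmic sensor MDA5, had 29.7, 25.9 and 28.8 CPM in shCdGAP and 17.1, 17.3 and 17.3 CPM in shCon (log2 fold change 0.71 ± 0.06, adjusted p = 1.66e-05). Both enzymes that are abundant in resting cells stayed short of the threshold. ADAR, which edits adenosine to inosine in double-stranded RNA, had 551, 493 and 530.2 CPM in shCdGAP and 500.2, 507 and 493 CPM in shCon (log2 fold change 0.07 ± 0.04, adjusted p = 0.210). The counts are per gene and cannot separate its interferon-induced isoform from the constant one. EIF2AK2, which encodes the kinase PKR, had a log2 fold change of 0.17 ± 0.10 (adjusted p = 0.173). Both rose without shCdGAP replicate 2, by 0.10 for ADAR and 0.28 for EIF2AK2.

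The TRIM genes, most of which encode ubiquitin ligases, restrict viruses or tune their sensing. Of the 5 genes 3 rose (60%) and 1 fell (20%), against 24.1% and 22% of all tested genes. A single fall thus does not set the family apart. TRIM22 had 6.26, 3.63 and 6.63 CPM in shCdGAP and 0.620, 0.592 and 0.817 CPM in shCon (log2 fold change 3.03 ± 0.28, adjusted p = 2.42e-05). TRIM21, a cytoplasmic antibody receptor, had 21.8, 19.6 and 20.9 CPM in shCdGAP and 10.3, 11.4 and 10.3 CPM in shCon (log2 fold change 0.96 ± 0.07, adjusted p = 5.49e-06). TRIM5, known for restricting retroviral capsids, rose by 0.56. TRIM14, an adaptor of the mitochondrial antiviral signalling protein, had 109.6, 93.9 and 103 CPM in shCdGAP and 175, 172 and 169 CPM in shCon. It fell by 0.75 on the log2 scale (SE 0.05, adjusted p = 5.12e-06), with no overlap. Its neighbours on chromosome 9 moved the same way, since the other 57 tested genes within 5 Mb had a median log2 fold change of -0.51, and 47 of them were below 0. The part of the region in the value of TRIM14 was not tested. TRIM25, which activates RIG-I, had 265, 226 and 253 CPM in shCdGAP and 283, 279 and 277 CPM in shCon. All shCdGAP libraries lay under all shCon libraries, and the log2 fold change of -0.17 ± 0.05 missed the threshold (adjusted p = 0.0224). It passed with DESeq2 and without shCdGAP replicate 1 (log2 fold change -0.23). Without shCdGAP replicate 2 it passed at a smaller log2 fold change of -0.12 (adjusted p = 0.000113).

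PARP9 and DTX3L form a complex of an ADP-ribosylating protein and a ubiquitin ligase, and PARP12, PARP14 and ZC3HAV1 (also called ZAP, which binds viral RNA rich in CpG) belong to the same enzyme family as PARP9. Of the 5 genes 4 rose (80%, against 24.1% of all tested genes), within a narrow band. None rose by a log2 fold change above 1 (median 0.58), where 8.56% of all tested genes did. PARP14 had 208, 175 and 207 CPM in shCdGAP and 120.3, 115 and 112 CPM in shCon (log2 fold change 0.76 ± 0.07, adjusted p = 1.89e-05). PARP9 had 93.9, 76.5 and 93.0 CPM in shCdGAP and 49.2, 47.5 and 50.3 CPM in shCon (log2 fold change 0.84 ± 0.08, adjusted p = 2.49e-05). DTX3L, which faces PARP9 across a shared start region on chromosome 3, rose by 0.58 and PARP12 by 0.48. ZC3HAV1 was higher in every shCdGAP library but did not pass (0.25 ± 0.07, adjusted p = 0.0167). It passed without shCdGAP replicate 2, at 0.33 (adjusted p = 1.86e-12), and with DESeq2 (adjusted p = 0.00534).

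Neither of the chemokines tested was called, and with 24.1% of all tested genes risen, 0 of 2 does not set the family apart. CXCL10, a ligand of the receptor CXCR3 on T cells, had 2.24, 2.25 and 1.48 CPM in shCdGAP and 2.5, 1.87 and 2.6 CPM in shCon (log2 fold change -0.21 ± 0.20, adjusted p = 0.405). CXCL11, a ligand of the same receptor, had 1.92, 2.20 and 1.95 CPM in shCdGAP and 2.22, 2.13 and 2.36 CPM in shCon (log2 fold change -0.14 ± 0.13, adjusted p = 0.399). The groups overlapped in both, and 0 of them passed an unadjusted p under 0.05 in edgeR or an adjusted p under 0.01 in DESeq2.

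Of the 12 remaining effectors 10 rose, 7 of them by a log2 fold change above 1 (median 1.31), against 24.1% and 8.56% of all tested genes. XAF1, a partner of the apoptosis inhibitor XIAP, had 2.57, 1.49 and 3.08 CPM in shCdGAP and 0.167, 0.237 and 0.303 CPM in shCon (log2 fold change 3.33 ± 0.36, adjusted p = 6.06e-05). RSAD2, which encodes viperin, an enzyme that makes a chain-terminating nucleotide, had 1.6, 0.895 and 1.48 CPM in shCdGAP and 0.191, 0.284 and 0.151 CPM in shCon (log2 fold change 2.61 ± 0.34, adjusted p = 0.000166). CMPK2, a nucleotide kinase encoded next to RSAD2 on chromosome 2, rose by 2.30. All of these genes started from under 1 CPM in shCon. BST2, which encodes tetherin, a protein that holds budding virus at the cell surface, rose by 2.53 ± 0.23, from 0.944 ± 0.15 to 5.45 ± 1.38 CPM (SD, n = 3 each). SAMD9L (1.67) and SAMD9 (1.02), paralogs that stop translation in infected cells, rose, as did APOL1 (1.6), a secreted protein that kills trypanosomes. LGALS3BP, a secreted glycoprotein that binds galectin-3 and was the most abundant of these genes by CPM, had 245, 251 and 247 CPM in shCdGAP and 142, 145 and 147 CPM in shCon (log2 fold change 0.78 ± 0.03, adjusted p = 1.81e-07). The exonuclease gene ISG20 (0.92) and the nuclear body gene SP100 (0.67) rose as well. ISG20 missed the threshold when any shCon library was left out (adjusted p between 0.0206 and 0.0248). Not passing were SP110, a relative of SP100 (0.18, adjusted p = 0.0856, but 0.26 and 0.000312 without shCdGAP replicate 2), and PLSCR1, a phospholipid scramblase (-0.11, adjusted p = 0.307).

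**Figure D2:**
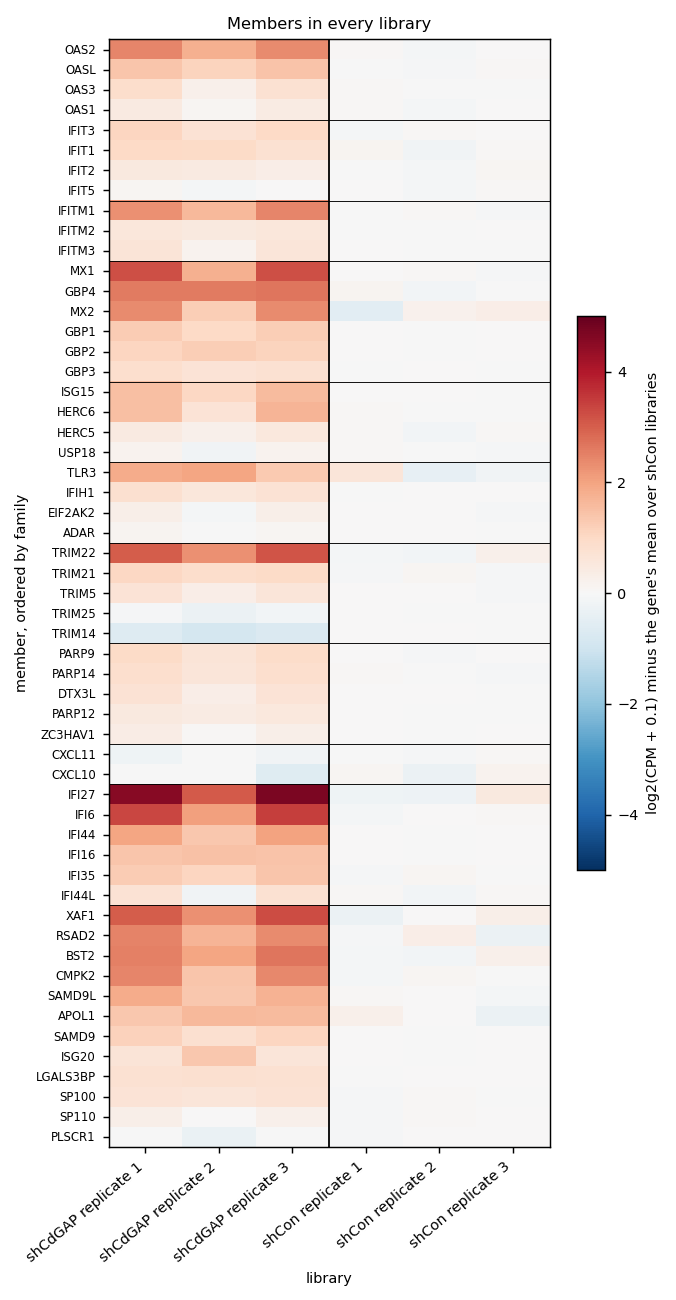
The 55 tested genes (rows, by family) in each of the 6 libraries (columns), coloured by log2(CPM + 0.1) minus the mean of that gene over the shCon libraries, so that red is above and blue below the control mean. The shCdGAP columns are red for most rows, TRIM14 is blue in all 3, and the shCdGAP replicate 2 column is paler than the columns beside it for rows such as IFI27, IFI6 and MX1.

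The level of most of the genes was lower in shCdGAP replicate 2 than in its fellows, and to unequal degrees. It was the lowest of the shCdGAP libraries for 45 of the 55 genes (81.8%), where it was the lowest for 41.6% of all tested genes. Among the 24 genes that rose by a log2 fold change above 1 it was the lowest for 20, with a median log2 ratio of -0.64 to the mean of replicates 1 and 3, while among all genes that rose by as much it was the lowest for 33%. IFI27 in replicate 2 stood at 33.2% of the mean of replicates 1 and 3, MX1 at 37.1% and IFI6 at 39.4%. These were among the genes with the largest fold changes. GBP4 stood at 97.0%, still the lowest of the 3. LGALS3BP (102%), IFI16 (103%), APOL1 (110.2%), GBP2 (111%), TLR3 (133%) and ISG20 (165%) were above that mean. Within shCon, replicate 2 had a median log2 ratio of -0.01 over the 55 genes. Without shCdGAP replicate 2, 48 genes rose, all 41 named as risen with it among them, 2 fell (TRIM14 and TRIM25), and the median log2 fold change was 0.88. Of all genes tested without that library, 29.97% rose and 30.02% fell, more than with it. The log2 fold change of ISG20 was then 0.62, and those of IFI27, IFI6 and MX1 were 4.74, 3.41 and 3.24. Other genes stood apart in it as well, among them KRT19 with 19638 reads against 12068 and 10112 in replicates 1 and 3, and PECAM1 with 261 against 96 and 93. Their part in the values of the listed genes was not tested.

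**Figure D3:**
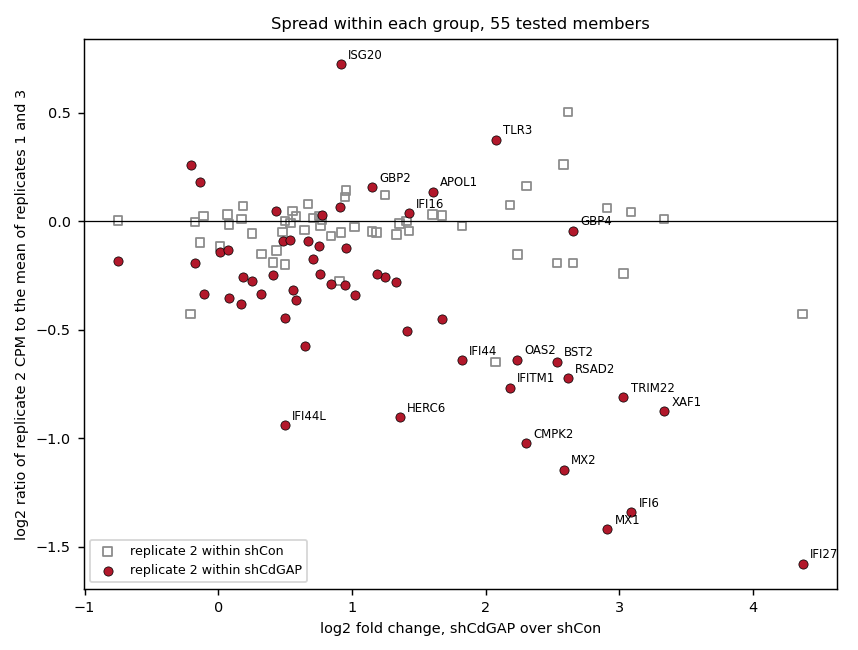
Log2 ratio of CPM in replicate 2 to the mean of replicates 1 and 3 (vertical axis), within shCdGAP (red points) and within shCon (open squares), against the log2 fold change of shCdGAP over shCon (horizontal axis), for the 55 tested genes. The same libraries enter both axes. The red points reach down to -1.58 for IFI27 and up to 0.72 for ISG20, and the median of the open squares is -0.01.

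Levels were compared between genes as CPM per kilobase of exon. In shCon the highest levels on this scale were those of IFITM3 (65.9 ± 0.15, SD, n = 3), ADAR (59.8 ± 0.84), IFITM2 (43.3 ± 0.22), TRIM25 (41.9 ± 0.43), ISG15 (40.5 ± 0.73) and LGALS3BP (40.4 ± 0.68). In shCdGAP the order was ISG15 (108 ± 20.6), IFITM3 (93.2 ± 15.8), IFI6 (89.0 ± 39.3), LGALS3BP (69.1 ± 0.81), IFITM2 (62.8 ± 2.18) and ADAR (62.8 ± 3.54). IFI6 thus stood at rank 15 of the list in shCon and at rank 3 in shCdGAP, and the SDs of ISG15, IFITM3 and IFI6 in shCdGAP overlap. IFI27, with the largest fold change, reached 5.27 CPM per kilobase in shCdGAP, rank 32 of the list, and MX2 reached 0.0730.

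**Figure D4:**
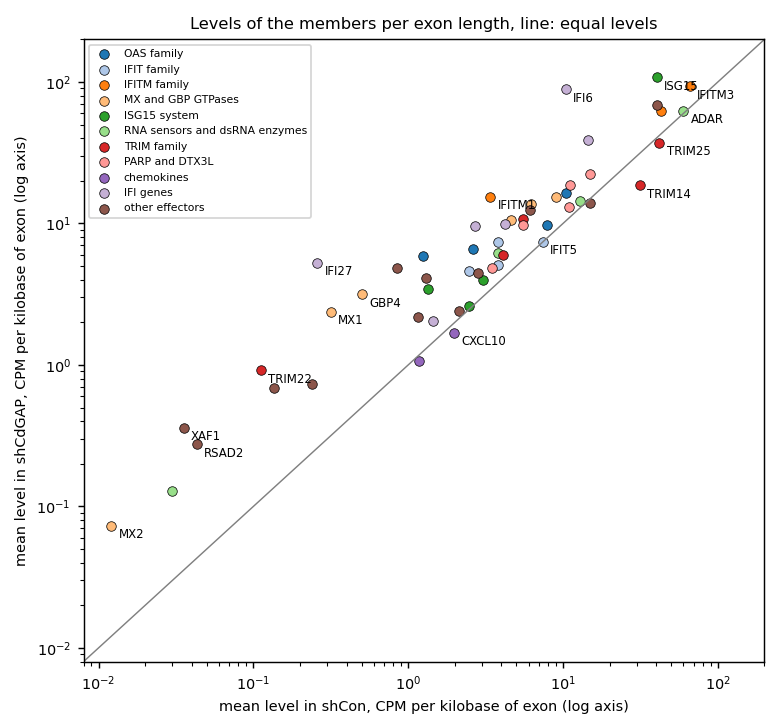
Mean level of each listed gene in shCdGAP (vertical axis) against shCon (horizontal axis), as CPM per kilobase of exon on log axes, with 3 libraries behind each mean and colours for the families. Genes off the diagonal line of equal levels, such as IFI6, IFI27, MX1 and TRIM22, are higher in shCdGAP, ADAR and IFIT5 lie near the line, and TRIM14 lies under it.

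The genes that make, carry and check the interferon signal fell about as often as all tested genes. Of 43 pathway genes, from the ligands to the inhibitors, 33 were tested, 12 rose and 8 fell (36.4% and 24.2% against 24.1% and 22% of all tested genes), and the median log2 fold change was 0.18. The count that rose was 7 without shCdGAP replicate 1 and 5 without shCon replicate 1 or shCon replicate 2. Of all genes tested in these ways 19.64%, 17.54% and 17.75% rose. Of 10 interferon genes 9 had too few reads for the test. IFNB1, the interferon that most cells make first, had 0 reads in all 6 libraries, and IFNL1 had 1 read in each shCdGAP library and none in shCon. IFNE, an interferon made by epithelia without infection, had 43, 33 and 24 reads in shCdGAP and 17, 22 and 22 reads in shCon. Its groups did not overlap, but its log2 fold change of 0.68 ± 0.26 did not pass (adjusted p = 0.0505).

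Among the receptors IFNLR1, a chain of the type III receptor, rose by 0.44, and IFNAR1 (-0.15) and IFNGR2 fell. IFNGR2, a chain of the interferon gamma receptor, had 101, 127 and 95.0 CPM in shCdGAP and 151, 158 and 158 CPM in shCon (log2 fold change -0.53 ± 0.10, adjusted p = 0.00261, and 0.0115 without shCdGAP replicate 1). JAK2, a kinase of that receptor, had 15.2, 13.5 and 14.7 CPM in shCdGAP and 32.0, 31.7 and 30.2 CPM in shCon (log2 fold change -1.11 ± 0.06, adjusted p = 7.68e-07). STAT2, a factor of the complex that binds the ISRE, had 45.9, 43.6 and 45.2 CPM in shCdGAP and 23.8, 23.5 and 24.9 CPM in shCon (log2 fold change 0.90 ± 0.05, adjusted p = 6.33e-07). IRF9, its partner, had 2.15, 1.22 and 2.65 CPM in shCdGAP and 0.953, 0.687 and 1.48 CPM in shCon, with 1 shCdGAP library under 1 shCon library (log2 fold change 0.95 ± 0.35, adjusted p = 0.0432). Without shCdGAP replicate 2 it passed, at 1.22.

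IRF7, the factor that amplifies interferon production and is itself a target of interferon, had 37.0, 28.7 and 39.1 CPM in shCdGAP and 8.58, 8.98 and 8.96 CPM in shCon (log2 fold change 1.98 ± 0.12, adjusted p = 2.07e-06). Among the other sensors and adaptors, RIGI (0.45) rose, and MYD88 (-0.71), an adaptor of Toll-like receptors, fell. Of the enzymes that work with the listed genes, UBE2L6, which conjugates ISG15, had 61.3, 68.4 and 61.5 CPM in shCdGAP and 11.9, 12.0 and 12.4 CPM in shCon (log2 fold change 2.40 ± 0.06, adjusted p = 1.67e-08). It was not low in shCdGAP replicate 2. UBA7, the enzyme that activates ISG15, rose by 0.97. Of the inhibitors, SOCS1 had 3.90, 4.45 and 3.96 CPM in shCdGAP and 1.93, 1.33 and 1.73 CPM in shCon (log2 fold change 1.31 ± 0.16, adjusted p = 0.000107), and SOCS3 fell by 0.46 on the log2 scale.

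**Figure D5:**
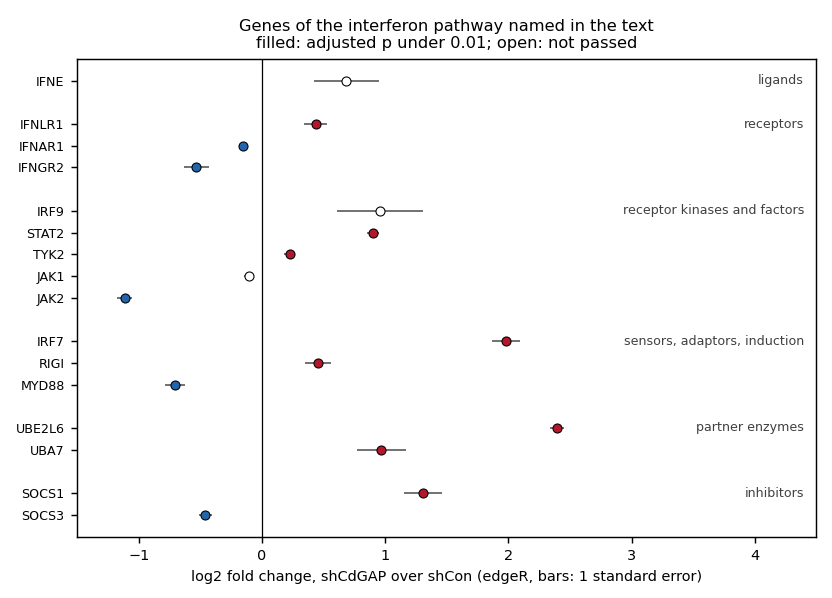
Log2 fold change of shCdGAP over shCon (horizontal axis) for the tested pathway genes named in the text, grouped by role, with bars of 1 standard error from the edgeR fit. Red points rose and blue points fell at an adjusted p under 0.01, and open points did not pass. UBE2L6, IRF7 and SOCS1 lie furthest to the right and JAK2 furthest to the left.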

How the data were processed

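The authors deposited 1 table of raw counts of reads per gene for each of the 6 libraries, made by aligning to GRCh38 with STAR 2.5.1b and counting with featureCounts. The methods name featureCounts 1.4.6 and a single-read kit, and the table headers name version 1.6.0, counting read pairs by strand against Ensembl release 77. These settings drop a read that aligned to more than 1 place or that lay in exons of more than 1 gene on its strand. Coordinates are those of the tables.

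All genes were fitted with edgeR 4.0.16 (filterByExpr, TMM factors of 0.987 to 1.01, glmQLFit with robust estimation, glmQLFTest), in R 4.3.3, and p-values were adjusted by the Benjamini-Hochberg method over 16439 genes. CPM used the reads of each library in the 16439 tested genes as its total, scaled by the TMM factors. The SE was the log2 fold change over the square root of F. The code was tested on simulated data. An exact permutation test of 3 against 3 cannot go below p = 0.1, so none was run on single genes. The genes and lists were chosen with earlier results of these data known. Values in every library were printed for the member of each family with the highest mean CPM, the 2 with the largest absolute log2 fold change, and those that fell, and for the most changed pathway gene of each role with IFNB1, STAT2, IRF9 and IRF7. Some genes of the pathway and marker lists are counted but not reported here by name. MX2, IFNL1 and members singled out for a reason given beside them are further to this rule. Alternatives were DESeq2 1.42.0, other scalings and filters, the replicate number as a block, other thresholds, and leaving out each library. Counting floors cover counting error only.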

Additional observations from a re-analysis of the deposited data

How the results depend on the processing

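Over 656 values of single genes under the alternatives, 605 kept their direction and their side of the threshold, 21 passed newly, 27 no longer passed, and 3 changed sign, all of the last being IFIT5, which was never called. The count of listed genes that rose was 41, 38 to 44 in the alternatives that kept all libraries and the test against 0, and 34 to 48 when a library was left out. Tested against a log2 fold change of 1 (glmTreat), 11 rose and 0 fell. The count that fell was 1, and it was 2 with DESeq2, without a filter on low counts and at an adjusted p under 0.05, TRIM25 being the gene added, and 1 to 2 when a library was left out. The count that rose by a log2 fold change above 1 was 20 to 25 when a library was left out, and the lowest counts of risen genes came without shCon replicate 1 (34 and 20). The median log2 fold change was 0.78 with 10 reads required in every library, where MX2, TLR3, RSAD2 and XAF1 left the test, and 0.80 to 0.92 when a library was left out. Pathway genes that rose numbered 5 to 16 and those that fell 6 to 11 when a library was left out. IFIT5 had log2 fold changes from -0.043 to 0.051 when a library was left out. Without a filter on low counts MX1, HERC6, IFI6, IFI27 and ISG20 did not pass, at adjusted p of 0.0105 to 0.0346, while OAS1 (3.59e-07), EIF2AK2 (0.00198), ZC3HAV1 (1.51e-06), IRF9 (2.6e-05) and TRIM25 passed, and the cause was not tested. Same-numbered libraries of the 2 groups deviated with correlations of 0.0598, 0.0784 and 0.0794, the highest value for each shCdGAP library. From the side of shCon, replicate 1 correlated slightly better with shCdGAP replicate 3 (0.0606). The remaining pairs had values from -0.135 to 0.0203. The methods of the study name no pairs, and the main fit took none. With the replicate block 43 listed genes rose, 1 fell and 23 rose by a log2 fold change above 1. Pathway genes then numbered 12 that rose and 7 that fell. IFI6 (adjusted p = 0.0101) no longer passed, and OAS1, OAS3, ZC3HAV1 and IRF9 passed. No upper-quartile or library-size scaling changed a call of a listed gene. At this depth, no difference was detectable for genes at or under 3 reads in every library, such as DHX58 and CCL5.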
